A study of Mus musculus with 6 samples.

Results

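The genes described here mark T cells and natural killer (NK) cells: 5 T cell genes (Cd3e, Cd3g, Cd2, Cd8a, Lck) and 4 NK and cytotoxic genes (Klrb1c, Ncr1, Gzma, Nkg7), 9 of the 16421 genes tested. They were taken by name, and their probes were found by RefSeq accession, which gave 13 probes. Every one of the 9 genes was tested, and the probe used for each was well above background on all 6 arrays. The samples were lung cells from which CD45-positive leukocytes had been depleted with magnetic beads, so what is read here is the lymphocyte RNA remaining in a preparation labelled CD45-negative.

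The mice were Ccr2KO (B6.129S4-Ccr2tm1Ifc/J), which lack the monocyte chemokine receptor Ccr2, and WT (C57BL/6J), 7 to 9 weeks old at the start. Each genotype was studied untreated (day 0) and 28 and 40 days after silica, a fibrogenic dust, was aspirated into the lung. Enzyme digestion of perfused lungs and a Percoll step against red cells and silica preceded the sort in all 6 groups. Each group gave 1 RNA, pooled from 3 biological replicates, and 1 one-colour array, so the spread between animals is not visible. All values are log2 signal minus the log2 of the 75th percentile on that array, and a level is never compared between probes.

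T cells recognise antigen through a receptor whose signal passes through the CD3 chains to the kinase LCK. NK cells carry no such receptor and read inhibitory and activating receptors, NKp46 and NK1.1 among them, before they release granzymes. The split is not sharp, because NK cells also transcribe Cd2 and Lck, and cytotoxic T cells also transcribe Gzma and Nkg7. Both cell types live in the healthy lung and enter it during inflammation.

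Ptprc encodes CD45, the antigen used for depletion, and is the level of remaining leukocyte RNA against which the genes are read. It lay at 0.45, 2.14 and −0.61 in Ccr2KO cells and 1.54, 2.62 and 0.29 in WT cells (untreated, day 28, day 40). The mean of the 16 other pan-leukocyte genes was 1.07, 2.80 and 0.55 in Ccr2KO cells and 1.98, 3.20 and 1.01 in WT cells. Leukocyte RNA was thus measurable on every array, was highest at day 28 in both genotypes and lowest at day 40. All 8 lung structural genes were well above background on all 6 arrays, with a mean between 4.69 and 4.99. In a bulk preparation, fewer cells of a type and less RNA per cell cannot be told apart. The 75th percentile of the signal was 792.9 to 975.5 in Ccr2KO and 878.2 to 1179 in WT arrays, with 60.5 to 63.8% and 58.1 to 64.3% of probes well above background, and the number of arrays limits the precision. Ccr2 itself read −5.07, −1.51 and −3.64 in Ccr2KO cells and 0.09, 1.38 and −1.70 in WT cells. It was lower in Ccr2KO on each day, and the sources used here do not place its probe relative to the deleted part.

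The promoter windows of 5 of the genes are printed, since they stand for both kinds of array profile described here, Cd3g and Lck for the T cell genes and Klrb1c, Gzma and Ncr1 for the NK genes. Each holds the 250 bases before a RefSeq start on the GRCm38.p6 build, 5′ to 3′ on the strand of the gene. The Cd3g window lies at chr9:44980432-44980681, minus strand, Lck at chr4:129573642-129573891, minus strand, Klrb1c at chr6:128788642-128788891, minus strand, Gzma at chr13:113100982-113101231, minus strand, and Ncr1 at chr7:4337465-4337714, plus strand. Capitals mark 3 short motifs on either strand: TGTGGT, bound by RUNX factors, AGGAAG, bound by ETS factors, and GTGTGA, bound by T-box factors.
Cd3g: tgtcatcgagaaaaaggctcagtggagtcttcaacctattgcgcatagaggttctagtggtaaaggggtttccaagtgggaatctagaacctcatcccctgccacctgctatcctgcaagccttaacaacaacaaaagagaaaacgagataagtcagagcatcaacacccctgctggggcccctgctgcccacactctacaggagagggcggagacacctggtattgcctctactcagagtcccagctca
Lck: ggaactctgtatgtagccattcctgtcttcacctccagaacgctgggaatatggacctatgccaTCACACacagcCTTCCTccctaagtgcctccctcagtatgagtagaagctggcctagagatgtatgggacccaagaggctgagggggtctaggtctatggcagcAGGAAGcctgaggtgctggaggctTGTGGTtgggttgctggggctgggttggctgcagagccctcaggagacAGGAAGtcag
Klrb1c: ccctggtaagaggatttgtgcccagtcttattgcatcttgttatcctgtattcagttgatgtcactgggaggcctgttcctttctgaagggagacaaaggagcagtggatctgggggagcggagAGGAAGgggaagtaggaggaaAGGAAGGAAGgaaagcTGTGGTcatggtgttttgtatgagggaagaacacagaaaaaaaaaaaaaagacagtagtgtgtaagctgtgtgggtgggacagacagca
Gzma: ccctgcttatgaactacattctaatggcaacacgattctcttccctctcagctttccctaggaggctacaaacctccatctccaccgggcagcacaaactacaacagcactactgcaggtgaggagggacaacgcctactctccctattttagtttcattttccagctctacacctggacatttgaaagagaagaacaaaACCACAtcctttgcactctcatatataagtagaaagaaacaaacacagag
Ncr1: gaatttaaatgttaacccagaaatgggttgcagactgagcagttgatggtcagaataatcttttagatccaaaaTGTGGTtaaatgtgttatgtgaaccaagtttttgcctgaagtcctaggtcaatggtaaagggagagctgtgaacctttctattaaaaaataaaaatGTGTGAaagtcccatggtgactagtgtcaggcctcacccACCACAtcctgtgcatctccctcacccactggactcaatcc

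RUNX, ETS and T-box factors direct the development of T and NK cells, which is why these motifs were searched. The RefSeq table held 10 windows for 8 of the 9 genes, with 2 each for Lck and Ncr1, and the Ncr1 windows overlap. The RUNX motif stood in 6 of the 10, and in 14% of 32851 windows of all genes. The T-box motif stood in 5 of the 10, against 12.3% of all windows, and the ETS motif in 5 of the 10, against 29.5%. The T-box windows were those of Lck, Ncr1 and Nkg7 only, so the doubled windows of Lck and Ncr1 raise this count. Those of Ncr1 also raise the RUNX count, and those of Lck the ETS count. In the printed windows Ncr1 held a T-box motif at −80 from the start and RUNX motifs at −176 and −41. Gzma held 1 RUNX motif at −50, and Klrb1c had 1 at −89 beside 3 ETS motifs, of which the pair at −105 and −101 overlap. Lck held motifs of all 3 kinds, and no motif was found in the Cd3g window. The matches describe the letters only and carry no statement on binding.

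The T cell genes were higher at day 28 after silica than in untreated lungs in both genotypes, and no NK gene passed the test there. Cd3e, which encodes the epsilon chain of the CD3 complex, read 0.91, 2.50 and 1.18 in Ccr2KO cells and 0.69, 2.22 and 0.91 in WT cells (probe A_55_P2156229, untreated, day 28, day 40). Both day 28 arrays lay above the other 4. Day 28 exceeded untreated by 1.56 ± 0.11 (adjusted p = 0.00954), as log2 difference ± SE from limma over all 6 arrays.

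Cd3g encodes the gamma chain of the same complex, lies near Cd3e on chromosome 9 (chr9:44969572-44980431 and chr9:44998735-45009663, GRCm38.p6) and had the largest difference among the 9 genes at day 28. It read −1.37, 1.22 and −1.14 in Ccr2KO cells and −1.40, 0.93 and −1.31 in WT cells on probe A_55_P2072771. Its arrays fell into 2 levels, with both day 28 arrays above 0 and the other 4 between −1.40 and −1.14. The rise at day 28 was 2.46 ± 0.12 (adjusted p = 0.00809), a factor of 5.5.

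Lck encodes the kinase that starts signalling from the T cell receptor. Its signal was 1.10, 2.99 and 0.88 in Ccr2KO cells and 1.46, 2.92 and 1.21 in WT cells, and day 28 exceeded untreated by 1.68 ± 0.16 (adjusted p = 0.0128). Again both day 28 arrays stood above the other 4, and Ccr2KO minus WT was 0.07 at day 28.

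Cd2, an adhesion receptor of T and NK cells, read 1.52, 2.77 and 0.38 in Ccr2KO cells and 1.99, 3.08 and 0.83 in WT cells on its brighter probe. The rise at day 28 was 1.17 ± 0.11 (adjusted p = 0.0132). Cd2 differed from the CD3 genes in its low end, since both day 40 arrays lay below both untreated arrays. Its second probe read −1.17, 0.15 and −2.53 in Ccr2KO cells and −0.72, 0.34 and −1.86 in WT cells and put the 6 arrays in the same order.

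Cd8a, the co-receptor chain of cytotoxic T cells, read −4.23, −2.25 and −4.45 in Ccr2KO cells and −3.60, −2.58 and −4.61 in WT cells on probe A_52_P443334. Day 28 exceeded untreated by 1.50 ± 0.27 (adjusted p = 0.0351), and the day 28 pair was again on top. The second probe gave −5.62, −3.02 and −4.94 in Ccr2KO cells and −5.10, −3.33 and −5.06 in WT cells, but it was well above background only in Ccr2KO day 28, WT untreated and WT day 28 cells. Cd8a lost its day 28 call when every probe was tested without selection (adjusted p = 0.0633) and when no filter was set on dim probes (adjusted p = 0.0675), and when either day 40 array was left out (adjusted p = 0.0555).

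All 5 T cell genes rose at day 28 by this test, where 9.2% of all genes rose, and the median of the 9 genes was 1.17, against −0.05 for all genes. The rise was at least 2-fold for 5 of 5 T cell genes in Ccr2KO cells (log2 1.25 to 2.59, background 9.37%) and in WT cells (1.02 to 2.33, background 9.14%). The Ccr2KO untreated and day 28 arrays shared a slide row, and within it the T cell differences were those just given. No T cell gene passed when the slide row was entered as a block or when either day 28 array was left out, with 1 residual degree of freedom in each case. Their differences were then 1.10 to 2.55, with adjusted p of 0.145 to 0.213, and no gene of the whole table passed.

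**Figure D1:**
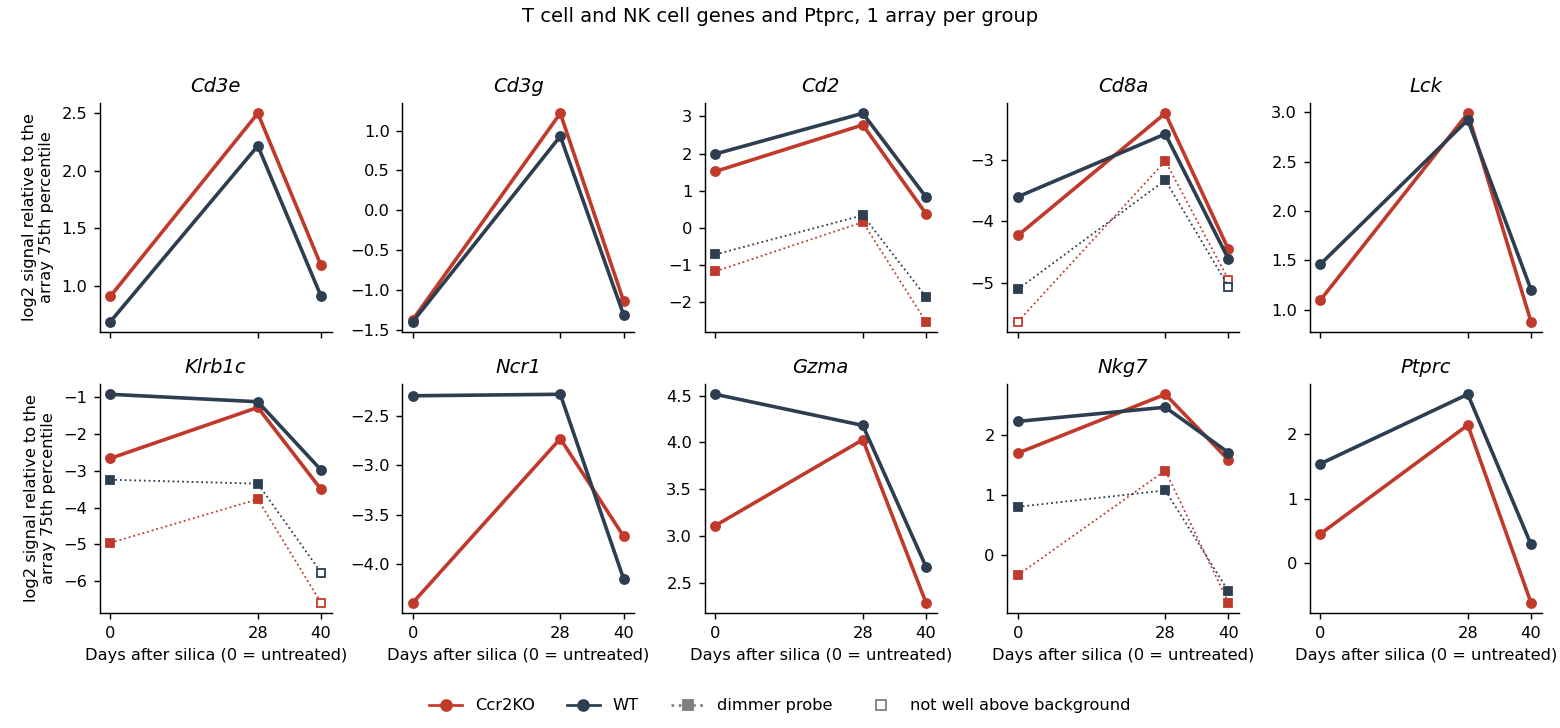
Log2 signal relative to the array 75th percentile (vertical axis, own scale in each panel) of the 9 genes and Ptprc, by days after silica, 1 array per point. Solid lines are the probe used, dotted lines a dimmer probe, open squares signals not well above background. The T cell genes peak at day 28 in both genotypes, and Klrb1c, Ncr1 and Gzma start lower in Ccr2KO than in WT.

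Before any silica was given, the NK and cytotoxic genes read lower in the Ccr2KO array than in the WT array, a difference that has no replicate check. Klrb1c encodes the activating receptor NK1.1 and read −2.67, −1.29 and −3.51 in Ccr2KO cells and −0.93, −1.14 and −2.98 in WT cells (untreated, day 28, day 40). The Ccr2KO untreated array lay 3.33-fold below WT untreated, and Ccr2KO minus WT was −0.15 (log2) at day 28. Its second probe read −4.96, −3.78 and −6.58 in Ccr2KO cells and −3.25, −3.35 and −5.76 in WT cells and was not well above background at day 40 in either genotype.

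Ncr1 encodes NKp46, a receptor used to define NK cells. It read −4.39, −2.73 and −3.72 in Ccr2KO cells and −2.30, −2.28 and −4.15 in WT cells, so the lowest of all 6 arrays was Ccr2KO untreated. Gzma, a granzyme of NK and cytotoxic T cells, read 3.11, 4.03 and 2.28 in Ccr2KO cells and 4.52, 4.18 and 2.67 in WT cells. WT untreated was its highest array, and both day 40 arrays were its lowest.

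Nkg7, a protein of cytotoxic granules, had the smallest range of the 9 genes over the 6 arrays on the probe used. It read 1.70, 2.67 and 1.58 in Ccr2KO cells and 2.22, 2.46 and 1.70 in WT cells there and −0.33, 1.41 and −0.79 in Ccr2KO cells and 0.80, 1.08 and −0.60 in WT cells on the other. The 2 probes gave a different size of the Ccr2KO to WT gap in untreated cells but the same direction. Nkg7 had both day 28 arrays on top, as the 5 T cell genes did and as 8.68% of all genes did.

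None of the 4 NK and cytotoxic genes passed at day 28 against untreated. The differences were 0.84 ± 0.63 (adjusted p = 0.402) for Ncr1, 0.61 ± 0.21 (adjusted p = 0.125) for Nkg7, 0.59 ± 0.42 (adjusted p = 0.372) for Klrb1c and 0.29 ± 0.34 (adjusted p = 0.582) for Gzma. The genotypes differed in this comparison, 1 array against 1. In Ccr2KO cells the 4 genes were 0.92 to 1.66 higher at day 28 than untreated, and in WT cells the same difference was −0.33 to 0.23. Klrb1c passed at day 28 (1.29, adjusted p = 0.0389) when the WT untreated array was left out.

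At day 40 the signal of all 9 genes was below that of day 28 in both genotypes, in a comparison that shares its day 28 arrays with the one before. All 5 T cell genes fell by the test, where 2.53% of all genes fell, and the median of the 9 genes was −1.91, against 0.10 for all genes. Ptprc fell by 2.54 ± 0.18, more than any of the 9 genes. Cd2 fell by 2.32 ± 0.11 (adjusted p = 0.0147) and Cd3g by 2.30 ± 0.12 (adjusted p = 0.0147). Cd8a fell by 2.12 ± 0.27 (adjusted p = 0.0451), Lck by 1.91 ± 0.16 (adjusted p = 0.0169) and Cd3e by 1.32 ± 0.11 (adjusted p = 0.0165). Day 40 was at least 2-fold below day 28 for 8 of 9 genes in Ccr2KO cells (background 4.77%) and for 8 of 9 in WT cells (background 5.61%). The exceptions were Ncr1 in Ccr2KO, at −0.99, and Nkg7 in WT, at −0.75.

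The NK genes did not pass in this comparison. Klrb1c differed by −2.03 ± 0.42 (adjusted p = 0.127), Gzma by −1.63 ± 0.34 (adjusted p = 0.132), Ncr1 by −1.43 ± 0.63 (adjusted p = 0.373) and Nkg7 by −0.92 ± 0.21 (adjusted p = 0.154). Both day 40 arrays nevertheless lay below both day 28 arrays for each of the 9 genes, as for 14.9% of all genes. Klrb1c and Gzma passed when either untreated array was left out (adjusted p = 0.015 and 0.0178) and with median scaling (adjusted p = 0.0246 and 0.028). In the authors' deposited values, which were not scaled between arrays, limma passed Klrb1c (−2.38, adjusted p = 0.0238), Gzma (−1.98, adjusted p = 0.0247) and Nkg7 (−1.27, adjusted p = 0.0251). The calls of the T cell genes were lost when any day 28 or day 40 array was dropped and when the row of the slide was blocked, with differences of −2.40 to −1.30, and that of Cd8a also with every probe tested (adjusted p = 0.0855) and with no filter (adjusted p = 0.0958). The WT day 28 and day 40 arrays shared a slide row, and their T cell differences were −2.26 to −1.31.

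Compared with untreated lungs, the T cell genes at day 40 kept little of the day 28 difference. Both untreated arrays lay in slide row 1 and both day 40 arrays in row 2, so day and row cannot be told apart within these pairs. Cd3e was 0.25 ± 0.11 (adjusted p = 0.19) and Cd3g 0.16 ± 0.12 (adjusted p = 0.399) from untreated, neither past the test. Cd2 fell by 1.15 ± 0.11 (adjusted p = 0.0146), the 1 of the 9 genes that passed, where 6.72% of all genes fell. Gzma, at −1.34 ± 0.34 (adjusted p = 0.0756), and Klrb1c, at −1.44 ± 0.42 (adjusted p = 0.0939), did not pass, with both day 40 arrays below both untreated ones, as for Cd2, Cd8a and 29.9% of all genes. For Cd8a this holds on the probe used only. The second Cd8a probe had both day 40 arrays above both untreated ones, and of these arrays only WT untreated was well above background on it. Within 1 genotype, day 40 was at least 2-fold below untreated for 1 of 9 genes in Ccr2KO cells (Cd2, background 5.8%) and for 5 of 9 in WT cells (Cd2, Cd8a, Klrb1c, Ncr1 and Gzma, background 6.19%). The count of 1 was 0 to 4 when single arrays were left out, 0 when the row was a block and 5 in the authors' table, all of them lower at day 40.

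Averaged over both silica days, 3 of the 9 genes rose against untreated lungs, where 10.5% of all genes rose. They were Cd3g at 1.31 ± 0.11 (adjusted p = 0.00892), Cd3e at 0.90 ± 0.09 (adjusted p = 0.0116) and Lck at 0.72 ± 0.14 (adjusted p = 0.0344). The average joins a high day 28 and a low day 40, and the median of the 9 genes was 0.14, against −0.01 for all genes. The count was 0 without either day 28 array, and also when the slide row was blocked. Lck did not pass with any 1 array left out (adjusted p = 0.0815 to 0.14), with every probe tested (adjusted p = 0.0608) or with no filter on dim probes (adjusted p = 0.0647).

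**Figure D2:**
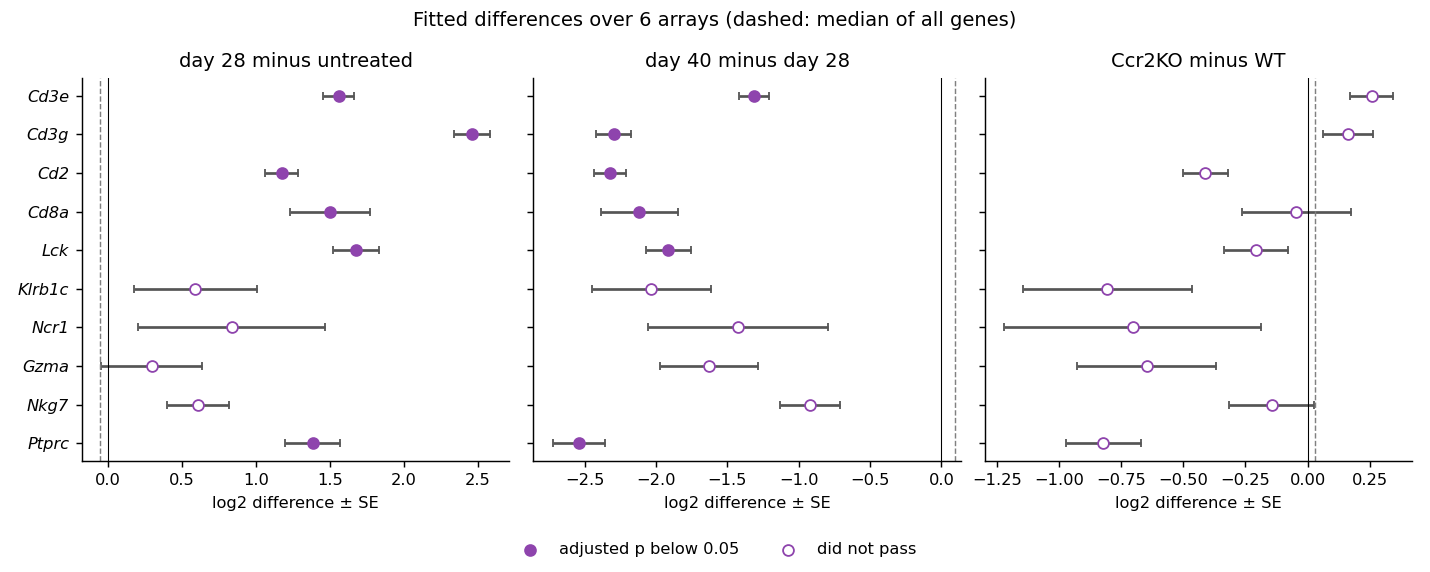
Fitted log2 differences (points, bars ± SE, limma over 6 arrays) of the 9 genes and Ptprc for day 28 minus untreated, day 40 minus day 28 and Ccr2KO minus WT. Filled points passed an adjusted p of 0.05, and the dashed line is the median of all genes. The 5 T cell genes and Ptprc pass in the first 2 panels and no gene passes in the third.

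In untreated lungs Ncr1, Klrb1c and Gzma differed more between the genotypes than the T cell genes did, in 1 array of each, while Nkg7 lay within the range of the T cell genes. Ccr2KO minus WT was −2.09 for Ncr1, −1.74 for Klrb1c, −1.41 for Gzma and −0.53 for Nkg7, against −0.63 to 0.22 for the 5 T cell genes. Of the 9 genes 3, all of the NK set, were at least 2-fold lower in Ccr2KO, against 2.81% of all genes. Ptprc stood at −1.09 in the same pair, and 7 of the 16 other pan-leukocyte genes were at least 2-fold lower (median −0.96). With the Ptprc difference subtracted, the values were −1.01 for Ncr1, −0.65 for Klrb1c, −0.32 for Gzma and 0.56 for Nkg7. The T cell genes were at 0.46 to 1.31 on that scale, and the median of all genes at 1.14. At day 28 no gene of the 9 differed 2-fold between genotypes, and Ccr2KO minus WT lay between −0.45 and 0.34, where 1.24% of all genes were 2-fold higher and 1.19% lower. At day 40 the same difference lay between −0.53 and 0.43, again with none past 2-fold (3.29% of all genes higher, 1.6% lower).

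Over the 3 days together limma called 0 of the 9 genes, and 0% of 16421, for Ccr2KO against WT. At an unadjusted p below 0.05 stood 2 of the 9, and 9.29% of all genes. They were Cd3e, higher in Ccr2KO on each of 3 days by 0.26 ± 0.09 (adjusted p = 0.526), and Cd2, lower on each of 3 days at −0.41 ± 0.09 (adjusted p = 0.438). Klrb1c differed by −0.81 ± 0.34 (adjusted p = 0.569), Ncr1 by −0.70 ± 0.52 (adjusted p = 0.713) and Gzma by −0.65 ± 0.28 (adjusted p = 0.569). Klrb1c and Gzma were lower in Ccr2KO on all 3 days, like Cd2 and 13.3% of all genes, and Cd3e and Cd3g were higher on all 3, like 19.6%.

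Whether silica moved the genotypes differently was tested as a difference of responses, Ccr2KO minus WT, with silica days pooled. No gene of the 9 passed, as 0% of all genes did, and none had an unadjusted p below 0.05, against 3.77% of all genes. All 9 values were positive, from 0.05 ± 1.18 for Cd3e to 2.08 ± 1.33 for Ncr1, with a median of 0.57 against −0.03 for all genes. So were all 17 pan-leukocyte genes, with a median of 0.43, and Ptprc among them was at 0.40 ± 2.25. With the Ptprc value subtracted, 5 of the 9 were positive, with a median of 0.18 against −0.42 for all genes. The SE of this fit includes the difference between day 28 and day 40 within each genotype, which was large for these genes. The SE exceeded the difference in 8 of the 9, so no statement on equal responses can be made.

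**Figure D3:**
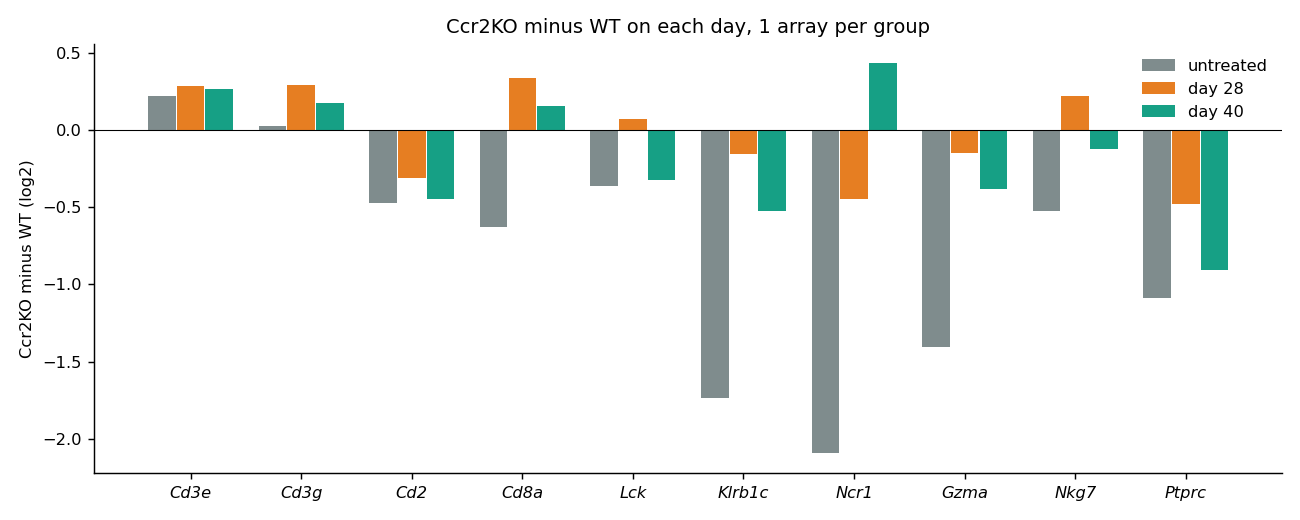
Ccr2KO minus WT (log2) on each day for the 9 genes and Ptprc, 1 array per group and no error available. In untreated cells Ncr1, Klrb1c and Gzma are at −2.09, −1.74 and −1.41, while at day 28 and day 40 the 9 genes lie between −0.53 and 0.43.

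The genes were then read against Ptprc, by taking each gene's change minus the change of Ptprc between the same arrays. At day 28 against untreated the T cell genes lay on either side of Ptprc, with −0.43 to 0.90 in Ccr2KO and −0.06 to 1.25 in WT, and the NK genes lay below it, with −0.77 to −0.03 in Ccr2KO and −1.41 to −0.84 in WT. The gene furthest above Ptprc was Cd3g in both genotypes, at 0.90 and 1.25. At day 40 against untreated Ptprc itself differed by −1.07 in Ccr2KO and −1.25 in WT, whereas Cd3e and Cd3g differed by 0.09 to 0.27. Relative to Ptprc Cd3e was then 1.33 higher in Ccr2KO and 1.47 higher in WT, and Cd3g 1.30 and 1.34. Most genes behaved likewise, since the median of all genes relative to Ptprc was 1.08 in Ccr2KO and 1.27 in WT. In that comparison 15564 and 15770 of 16421 genes lay above Ptprc. At day 28 against untreated the median of all genes was −1.755 and −1.105, with 783 and 1366 genes above Ptprc. At day 40 against day 28 Ptprc differed by −2.75 in Ccr2KO and −2.33 in WT. All 9 genes lay above it in both genotypes, as 16307 and 16165 of 16421 genes did.

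Fitted over 6 arrays, 1 of the 9 genes passed relative to Ptprc for silica against untreated (Cd3g, 1.20, background 7.11% up). For Ccr2KO against WT 4 passed, with Cd3e at 1.08, Cd3g at 0.99, Cd8a at 0.78 and Nkg7 at 0.68, while 85.9% of all genes were called higher. The 4 of 9 is a smaller share than the background. Since the error of Ptprc enters every gene of this fit, its p-values are too small and its calls are a description. With the mean of the other pan-leukocyte genes in place of Ptprc, 1 of the 9 was called for Ccr2KO against WT. The share of all genes called in that setting is not given here, so this count is not read as a result.

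**Figure D4:**
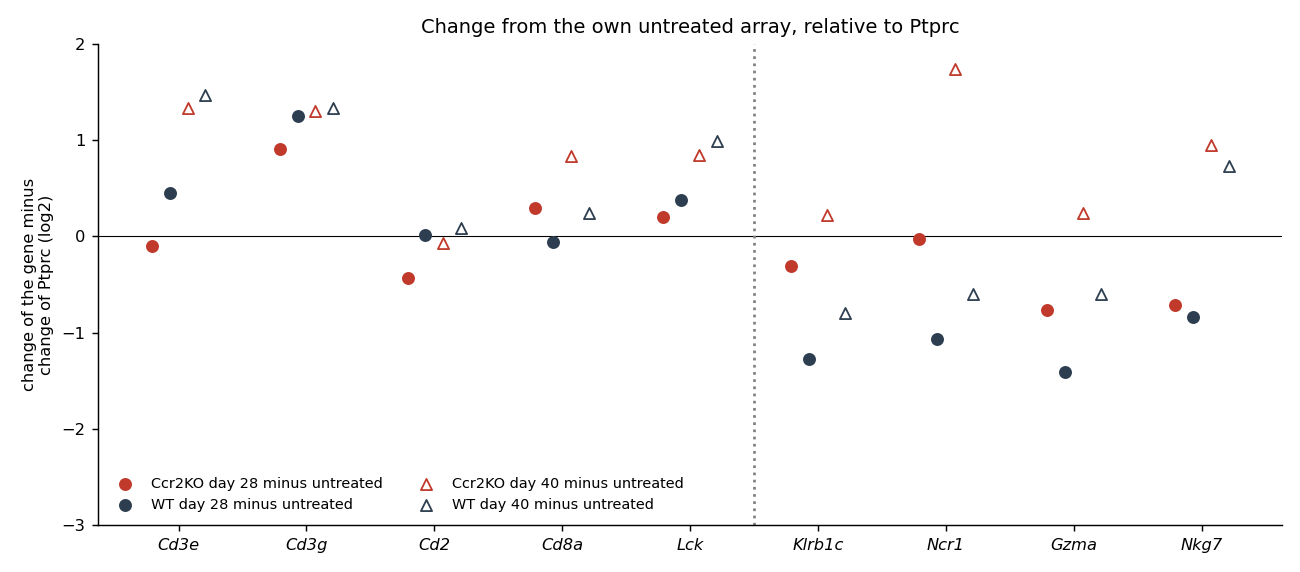
Change of each gene from the untreated array of its genotype minus the change of Ptprc (log2), filled circles at day 28 and open triangles at day 40, Ccr2KO in red and WT in dark blue. Cd3e and Cd3g lie above 0 at day 40 in both genotypes, and the NK genes to the right of the dotted line lie below 0 at day 28. On this scale the median of all genes is 1.08 and 1.27 at day 40 and −1.755 and −1.105 at day 28 (Ccr2KO and WT).

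Other genes of these cells were read from lists of marker genes. Among 22 T cell receptor and lineage genes, 16 rose at day 28 (median 1.45), where 9.2% of all genes rose. Bcl11b, a transcription factor of T cell commitment, rose by 2.16 ± 0.18 and Il7r, the interleukin-7 receptor chain, by 2.12 ± 0.14. Cd5, a T cell surface regulator, rose by 2.08 ± 0.24. Ubash3a, a suppressor of T cell signalling, was well above background on no untreated array and rose at least 3.8-fold. Of 17 helper, regulatory and activated T cell genes 14 rose (median 2.27). They were led by Pdcd1, the inhibitory receptor PD-1, at 3.62 ± 0.46, and the cytokine Il17a at 3.61 ± 0.14. Il2ra, a marker of regulatory and activated T cells, rose by 3.17 ± 0.16, and Cxcr6, a chemokine receptor of tissue T cells, by 2.93 ± 0.16.

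The NK and cytotoxic lists are read against the same 9.2% at day 28. Of 15 NK receptors and regulators 2 rose, Klrg1 by 1.74 ± 0.22 and Il2rb by 1.27 ± 0.17, with a list median of 0.61. Of 11 cytotoxic effectors 2 rose, the chemokine Xcl1 by 1.80 ± 0.28 and the protease Ctsw by 1.46 ± 0.30. Both counts rest on few genes and are near the share of all genes. In the list of 8 chemoattractants and growth factors, Cxcl9, an interferon-induced chemokine for T cells, passed at 3.23 ± 0.67, and at day 40 it was 4.46 ± 0.67 above untreated. Ccl19, a chemokine that draws Ccr7-bearing T cells, was 1.54 ± 0.26 higher at day 40, and the cytokine Il7 1.03 ± 0.17, in a comparison where 8.45% of all genes rose.

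Markers of other leukocytes also rose at day 28, where 9.2% of all genes did. Of the pan-leukocyte list 15 of 17 rose, of B cell genes 5 of 10 and of neutrophil genes 5 of 6. Of the macrophage and monocyte genes 1 of 11 rose, a share near that of all genes. The mean of the B cell list was −1.07, 0.27 and −2.48 in Ccr2KO and −0.79, 0.41 and −1.62 in WT cells, and that of the macrophage list 0.71, 2.29 and 1.33 in Ccr2KO and 2.12, 2.43 and 0.88 in WT cells. The neutrophil list averaged 2.19, 4.24 and 2.10 in Ccr2KO and 2.30, 4.07 and 1.94 in WT cells. Their part in the T and NK results was not tested.

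At day 40 against day 28, 15 of the 22 T lineage genes and 13 of the 17 helper and regulatory genes fell, where 2.53% of all genes fell. The list medians were −1.94 and −2.10. Other leukocyte markers fell too, with 16 of 17 pan-leukocyte (median −2.36), 6 of 10 B cell (−2.73) and 5 of 6 neutrophil genes (−2.38). Of the macrophage and monocyte genes 1 of 11 fell. Sh2d1a, an adaptor of T and NK cells, fell by 2.36 ± 0.19, and Ccr7 by 2.56 ± 0.20. Tigit and Il23r were not well above background at day 40 and fell at least 3.10-fold and 3.01-fold. Of the 15 NK genes 4 fell, among them Klrg1, S1pr5, a receptor for NK cell egress, and the T-box factor Tbx21, which read −2.03, −1.35 and −3.01 in Ccr2KO and −1.51, −1.07 and −2.69 in WT cells. At day 40 against untreated 3 of the 15 NK genes fell, where 6.72% of all genes fell. They were S1pr5 at −2.03 ± 0.23, Tbx21 at −1.08 ± 0.12 and Klre1, which was at least 2.8-fold lower. limma called no gene of these lists for Ccr2KO against WT. The NK receptor list had a median of −0.54 there, with 6 of its 15 genes at an unadjusted p below 0.05, against 9.29% of all genes. The pan-leukocyte list had a median of −0.58, with 14 of its 17 genes at that threshold. So were 4 of 22 T lineage genes and 4 of 17 helper and regulatory genes. Of cytotoxic effectors 1 of 11 reached it, and of chemoattractants and growth factors 2 of 8.

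**Figure D5:**
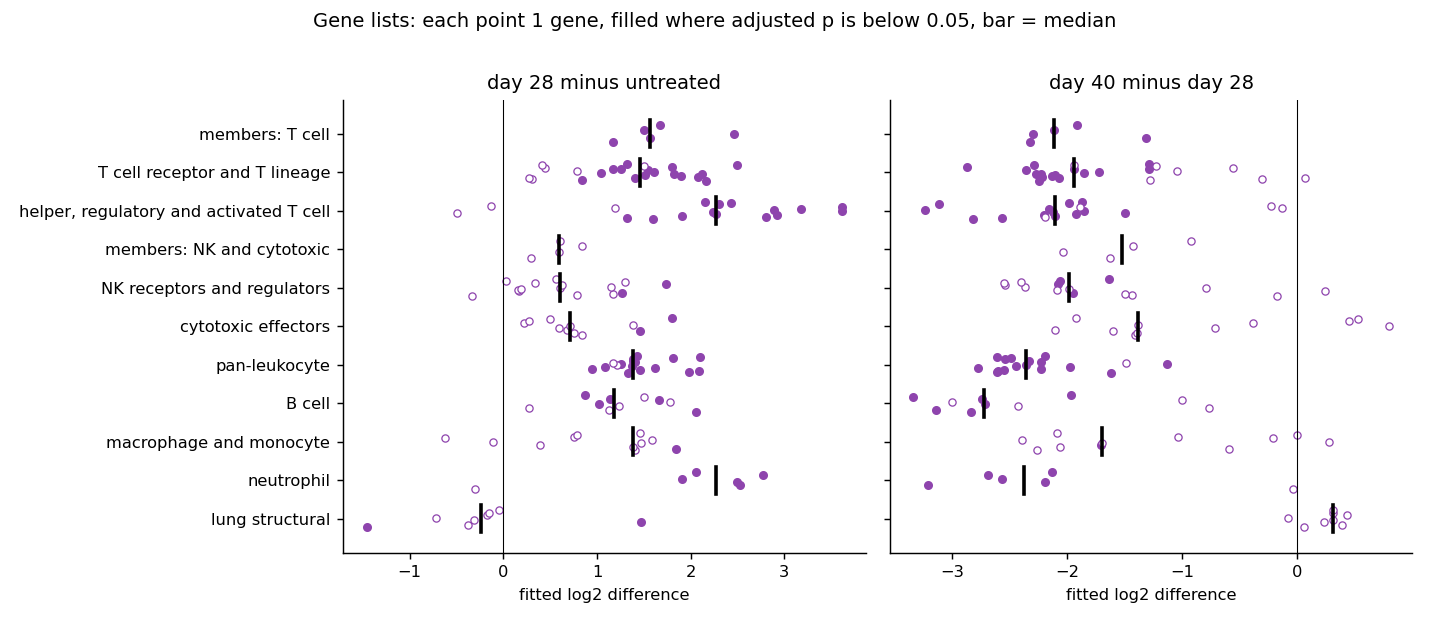
Fitted log2 differences of each gene in the marker lists (points, filled where the adjusted p is below 0.05; bar, list median) for day 28 minus untreated and day 40 minus day 28. Fitted values are shown also for genes not above background. Medians of the T cell lists are 1.45 to 2.27 at day 28, those of the NK and cytotoxic lists 0.60 to 0.72.

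Across the 6 arrays the 9 genes had a Pearson correlation of their mean profile with Ptprc of 0.96, which is a description over 6 points that share their scaling. Cd3e and Cd3g correlated at 0.989, and Klrb1c and Gzma at 0.995, but Cd3e and Gzma at 0.373. The 8 genes most like the mean of the 9, of 14918 above background on all arrays, were Arrb2, Atp8b4, Pik3cd, Klk1b5, Selplg, Pilra, Ccl5 and Dok2 (r of 0.992 to 0.996). Selplg, for one, encodes the selectin ligand PSGL-1 and read 0.61, 2.53 and 0.09 in Ccr2KO and 1.48, 2.86 and 0.41 in WT cells.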

How the data were processed

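Arrays had 1 colour and, per the file headers, the authors extracted background-corrected processed intensity with Feature Extraction 11.0.1.1, and per the submitters' processing notes R 2.15.1 was used. The deposited values hold the log2 of this intensity, unscaled, for 30574 probes, 8 of the 9 genes (not Cd8a) among them.

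From the deposited scanner intensity, controls were dropped, outlier spots were masked (109 to 195 on an array), spots of 1 probe were averaged, and log2 values were lowered by the 75th percentile of the array. No spot was saturated. Of 55681 probes 27509 matched 1 symbol through RefSeq (GRCm38.p6). Probes well above background on at least 2 arrays were kept and the brightest probe of each gene was used. A gene dim on every array of a group is given as "at least", the bright mean over the higher of its own signal and the lowest signal well above background. limma 3.58.1 in R 4.3.3 fitted genotype plus day (2 residual degrees of freedom, prior 2.22) and genotype by silica (prior 1.87), with Benjamini-Hochberg adjustment over 16421 genes at 0.05. As each group has 1 array of pooled RNA, no p-value measures animal-to-animal spread. In the additive fit the spread is the departure from additivity between arrays. In the genotype by silica fit it is the difference between day 28 and day 40 within each genotype. The slide was shared by all 6 arrays, in 2 rows. Row 1 held both untreated arrays and Ccr2KO day 28, and row 2 held WT day 28 and both day 40 arrays.

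The members and lists were chosen with earlier results of these data known. Named are all 9 genes, Ptprc, up to 4 called genes of each list and the 8 genes most like the members in profile. Of the lists, the lung structural and neutrophil genes served as markers of other cells. The alternatives were another background correction (normexp, offset 50, on median signals, since the files used hold no mean signal), quantile and median scaling, the authors' values, other filters and probe rules, a trended prior, the slide row as a block, each array left out, and another leukocyte level, the last chosen after seeing the data.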

Additional observations from a re-analysis of the deposited data

Results flagged for a closer look

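For 3 values the genotypes moved in opposite directions from their untreated array, 1 array each, and these differences were not tested day by day. Klrb1c at day 28 was 1.38 above untreated in Ccr2KO cells and −0.20 from untreated in WT cells, a difference of 1.58. Gzma at day 28 was at 0.92 in Ccr2KO cells and −0.33 in WT cells, a difference of 1.25. Ncr1 at day 40 was at 0.67 in Ccr2KO cells and −1.85 in WT cells, a difference of 2.52. All 3 genes had their lower untreated value in Ccr2KO cells. With both silica days pooled, the tested difference of responses passed for none of them (limma, adjusted p = 1).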

How the results depend on the processing

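The 5 T cell genes kept the direction of their day 28 and their day 40 against day 28 differences in all alternatives run (Cd8a has no value in the authors' table), but their calls rest on few degrees of freedom. With the slide row as a block, 0 genes were called for day 28, day 40 against untreated, day 40 against day 28, silica, and silica relative to Ptprc. The median for silica was then 0.55, with Gzma at 0.0363 and Klrb1c at 0.304. Leaving out single arrays gave 0 to 6 called genes for day 28, 0 to 7 for day 40 against day 28, 0 to 4 for day 40 against untreated and 0 to 4 for silica. The median for silica was then −0.0326 to 0.837, and that for Ccr2KO against WT −0.344 to −0.00991. The shares of all genes called with an array left out are not given beside these counts, which are a description only. Relative to Ptprc, leaving out arrays gave 0 to 2 genes for silica with a median of −0.00644 to 0.526, and 0 to 6 genes for Ccr2KO against WT.

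In the authors' unscaled table the median of all genes was −0.193 for silica, −0.197 for Ccr2KO against WT and −0.336 for day 40. With the 75th percentile it was −0.00954, 0.0305 and 0.0198. Day 40 against untreated called 5 of the 8 genes in the authors' table, and 6117 of all genes, against 2491 with the 75th percentile. The median of the 8 genes was −0.0476 for silica and −0.536 for Ccr2KO against WT. Silica values were −0.169 for Cd2, −0.0576 for Ncr1 and −0.0376 for Nkg7, and Cd3g was at −0.0643 for Ccr2KO against WT. Day 40 against untreated called 2 genes with normexp, where 3557 of all genes were called, and 2 with probes above background on all arrays, where 2913 were. It called 2 with a trended prior and 3 with median scaling, for which no count of all genes is given here. Silica relative to Ptprc called 2 genes with normexp (1978 of all genes), with probes above background on all arrays (2242) and with the authors' table (2214), against 2262 of all genes in the main run. It also called 2 with a trended prior. Cd2 for silica was −0.0139 with normexp, −0.0275 with median scaling and −0.00838 with the mean of probes, and Cd8a for Ccr2KO against WT was 0.0846 with normexp. Without a filter on dim probes, 2 genes were called relative to Ptprc for Ccr2KO against WT, where 7805 of all genes were called, against 14147 in the main run. With other pan-leukocyte genes in place of Ptprc, 2 were called for silica, 1 up and 1 down, with a median of −0.221. For Ccr2KO against WT 1 was called, with a median of 0.385. These 2 counts have no share of all genes beside them and are a description only. The cause was not tested.

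Leaving out arrays turned the sign of silica for Cd2 (−0.0326 to 0.058), Gzma (−1.09 to 0.0483), Klrb1c (−1.13 to 0.27), Ncr1 (−0.917 to 1.17) and Nkg7 (−0.142 to 0.431). It did so at day 28 for Gzma (−0.275 to 0.863), Klrb1c (−0.109 to 1.29) and Ncr1 (−0.205 to 1.88), and for Ccr2KO against WT for Cd8a (−0.235 to 0.246) and Nkg7 (−0.325 to 0.0466). No paired analysis was possible because each group has 1 array, so replicate numbers pair nothing beyond the genotype and day terms already in the fit.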
